A study of Mus musculus with 16 samples.

Results

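The genes described here are 31 interferon-stimulated genes, picked by name out of the 50600 genes counted in each library: the transcription factors Stat2, Irf1, Irf7 and Irf9, and effectors of the Ifit, Mx, guanylate-binding protein (Gbp), immunity-related GTPase, Parp and other families. They were chosen by name as known responders to interferon, not by a threshold on any value in these libraries, and all 31 were found. Earlier results of these data were known when the choice was made. The study asked how unequally the 129/Sv and Cast/EiJ alleles are expressed in clonal hybrid mouse neural cells. RNA was sequenced from 12 clones in 16 libraries, and no interferon treatment is named for any of them. Each clone grew from 1 picked neural progenitor cell (NPC) colony made from male or female 129Sv x Cast/EiJ embryonic stem cells, so a clone is 1 line and not an animal.

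There were 5 astrocyte libraries, which came from NPC clones 129, C2 and G4 (female) and mC3 and mE6 (male) by a move to medium with FGF2 and BMP4. There were 3 NPC libraries from clones F5 (female), mG2 and mG6 (male). Both groups were prepared by poly(A) enrichment. The 8 other libraries were NPCs of the male clones Ch3, Ch5, Ch7 and Ch8, each with 2 libraries made after ribosomal RNA depletion. No clone was in both the astrocyte and the poly(A) NPC group, and the sample titles of those groups differ in their first letters and digits, so clone, title series and cell type cannot be told apart. Levels are all-read CPM, the reads of a gene scaled to library size with TMM factors that even out composition, computed within each preparation. The level of an allele is the CPM of the reads assigned to it. They are not compared between preparations or between genes. The allelic expression ratio is the percentage of Cast reads among the reads that could be assigned to an allele, and is given for at least 20 such reads.

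Interferons are secreted signals of antiviral defence. Type I interferons bind the receptor pair Ifnar1 and Ifnar2, whose kinases Jak1 and Tyk2 activate Stat2, which joins Irf9 in the complex ISGF3. ISGF3 binds a short element in the promoters of interferon-stimulated genes, the interferon-stimulated response element. Interferon gamma acts through the receptor pair Ifngr1 and Ifngr2 and a different element, the gamma-activated site. Most cells, neural cells included, keep a low tonic level of these transcripts without infection.

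Library size was 69925081 to 105892734 reads in the poly(A) libraries and 20871111 to 30920672 in the ribosomal RNA-depleted ones, of which 30.5 to 34.8% and 18.9 to 21.1% were allele-specific. The astrocyte label was checked on its markers: Gfap was at 1977, 65.4, 224, 165 and 254 CPM in clones 129, C2, G4, mC3 and mE6 and at 0.669, 2.12 and 1.82 CPM in F5, mG2 and mG6, 3 of 7 astrocyte markers were called higher in astrocytes, 3 of 6 progenitor markers were called lower, and 4 of 4 proliferation markers were lower. The 7 astrocyte markers summed to 1457 CPM in C2, under the 1486 CPM of F5 and the 1799 CPM of mG2, and to 3330 to 4963 CPM in the 4 other astrocyte clones. The 7 markers of microglia and macrophages summed to 0.809 to 6.12 CPM in astrocytes and 2.42 to 2.93 CPM in poly(A) NPCs, with Tyrobp and Itgam at 0 reads in all of these libraries. The 6 fibroblast markers summed to 4.10 to 218.1 CPM in astrocytes, highest in C2, and to 2.90 to 12.8 CPM in poly(A) NPCs, and the 4 endothelial markers to 19.0 to 104.8 and 4.06 to 6.84 CPM. Whether these moved with the levels below was not tested. In bulk RNA fewer cells with a transcript and less transcript per cell cannot be told apart.

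The promoters of the set are shown because ISGF3 acts through the response element, though not every gene of the set held it. The window was 250 bases before to 50 bases after the annotated start, from RefSeq on GRCm38.p6, and 25 of the 31 genes had one. The element was searched as GAAANNGAAA or TTTCNNTTTC, the same letters on the other strand, where neighbouring matches may overlap. It was present in the promoter of 13 of these 25 genes, against 3.99% of the 27025 genes with a promoter. Since the genes were picked as known responders to interferon, a share above that of all genes is no independent finding. The gamma-activated site, searched as TTCNNNGAA, was in 8 of the 25, against 9.55% of all. Below are the stretches around the element, 5′ to 3′ on the gene's strand with the matches in capitals, for the genes whose values are described next.
Stat2, chr10:128270251-128270310 (plus strand): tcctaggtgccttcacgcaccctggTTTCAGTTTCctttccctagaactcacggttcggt
Isg15, chr4:156200850-156200921 (minus strand): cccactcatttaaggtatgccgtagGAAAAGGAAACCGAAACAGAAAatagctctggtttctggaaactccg
Ifit1, chr19:34640760-34640838 (plus strand): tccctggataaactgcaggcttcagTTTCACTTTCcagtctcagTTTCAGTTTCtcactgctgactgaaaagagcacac
Ifit3, chr19:34583348-34583441 (plus strand): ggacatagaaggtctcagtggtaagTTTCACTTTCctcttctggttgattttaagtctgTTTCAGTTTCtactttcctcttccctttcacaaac
Rsad2, chr12:26456538-26456597 (minus strand): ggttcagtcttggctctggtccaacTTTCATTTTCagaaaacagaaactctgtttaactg
Gbp3, chr3:142559974-142560039 (plus strand): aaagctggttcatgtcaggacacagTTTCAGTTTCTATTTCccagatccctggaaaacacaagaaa
Gbp7, chr3:142530258-142530317 (plus strand): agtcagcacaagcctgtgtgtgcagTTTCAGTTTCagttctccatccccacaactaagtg
Ifih1, chr2:62646206-62646248 (minus strand): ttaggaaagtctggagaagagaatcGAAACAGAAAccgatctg
Irgm1, chr11:48871410-48871475 (minus strand): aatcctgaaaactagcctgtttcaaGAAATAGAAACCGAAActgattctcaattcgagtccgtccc
The genes Gbp2, Bst2, Igtp and Ifitm3 held it as well. In Ifih1 the match lay after the annotated start, within the window, and so did the last match of Ifitm3. A match is a run of letters and not a shown binding site. Gbp7 and Gbp3 start on the same strand of chromosome 3.

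The first comparison asked which of these genes differ in level between astrocytes and NPCs. In astrocytes the antiviral GTPases Mx1 and Mx2, Ifi35, Ifi44 and Stat2 were higher, and Gbp7, Gbp3 and Rsad2 were lower. Of the 31 genes, 27 passed the filter on low counts, and edgeR's quasi-likelihood test called 5 higher, where 12.8% of all 18192 genes tested were called higher, and 3 lower, where 12.5% of all were. The median log2 fold change was 0.61 over the 27 and 0.08 over all genes tested. The other 19 were not called.

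**Figure D1:**
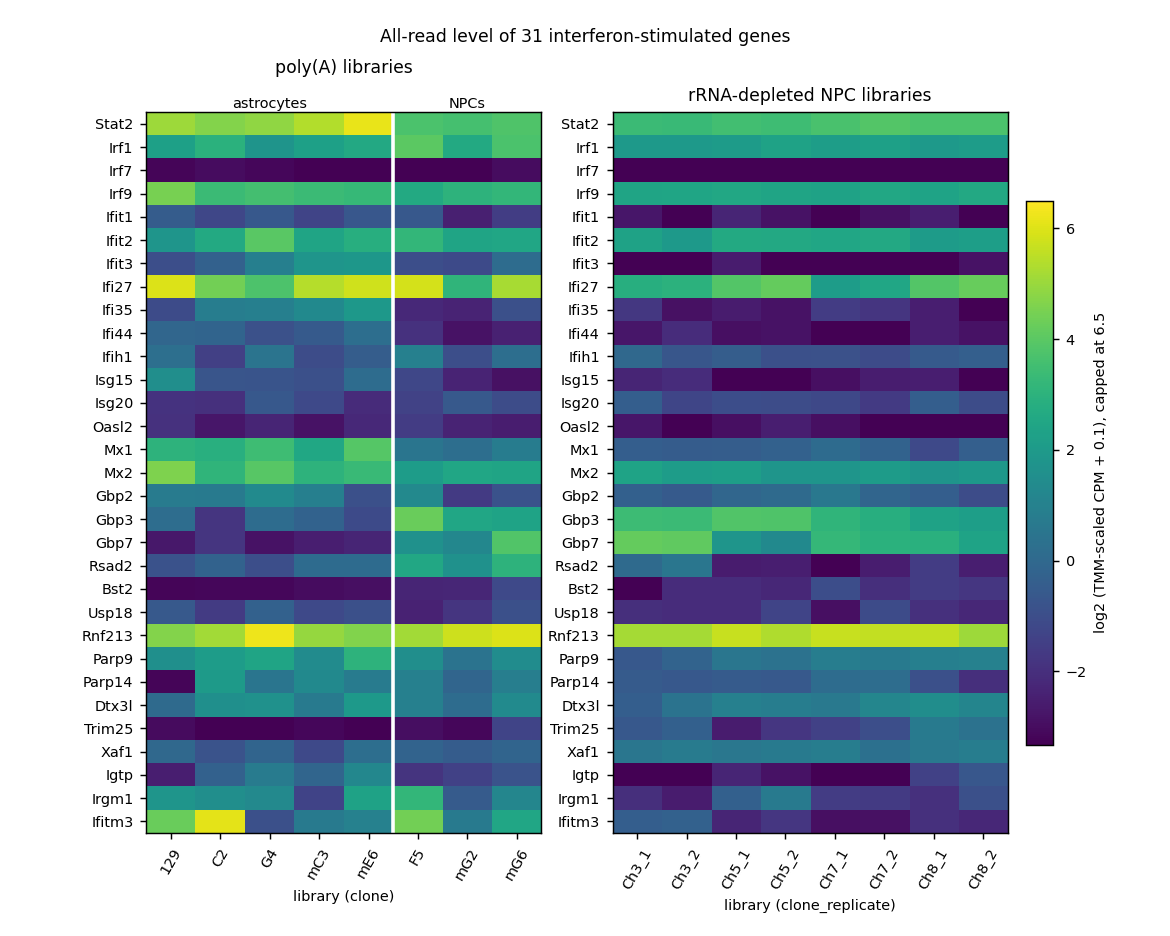
Heat map of the all-read level of the 31 genes as log2 of TMM-scaled CPM plus 0.1, with one column per library, scaled separately for the poly(A) libraries (left; astrocytes, then NPCs) and the ribosomal RNA-depleted NPC libraries (right). Gbp7 and Gbp3 are darker in the 5 astrocyte columns than in the 3 NPC columns, Mx1 is brighter there, and Parp14 is dark in clone 129 alone among the poly(A) libraries.

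Stat2, which carries the activation domain of ISGF3, was at 32.8, 25.2, 29.1, 41.4 and 71.5 CPM in astrocyte clones 129, C2, G4, mC3 and mE6 and at 13.1, 12.1 and 13.6 CPM in NPC clones F5, mG2 and mG6. Every astrocyte clone was above every NPC clone, with a log2 fold change of 1.63 ± 0.36 (standard error; adjusted p = 0.0134). The call was lost without F5, mG2 or mG6 (edgeR adjusted p up to 0.0615). Irf9, which supplies the DNA contact of ISGF3, was at 22.6, 10.3, 11.8, 10.3 and 9.36 CPM in astrocytes and 6.23, 8.1 and 9.0 CPM in NPCs, and was not called (0.73 ± 0.35, edgeR adjusted p = 0.155). Irf1, a factor induced by interferon gamma, was at 4.63, 7.59, 3.28, 4.75 and 5.98 CPM in astrocytes and 16.4, 6.13 and 13 CPM in NPCs, with F5 and mG6 above all other clones (-1.17 ± 0.38, edgeR adjusted p = 0.0527). It was called in 4 of 15 alternatives (DESeq2, RLE size factors, without C2 and without mG2), with adjusted p down to 0.0135. Irf7, the amplifier of the type I response, had 0 to 2 reads in every library and was not tested.

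Among the antiviral effectors Mx1 was higher in every astrocyte clone. Its level was 8.13, 7.2, 11, 5.63 and 15 CPM in the 5 astrocyte clones, lowest in mC3 and highest in mE6, and 1.3, 1.08 and 1.66 CPM in the NPCs (2.80 ± 0.42, adjusted p = 0.00293). Its neighbour Mx2 was at 24.3, 8.4, 15.2, 7.97 and 9.94 and 4.23, 5.5 and 5.23 CPM (1.40 ± 0.42, adjusted p = 0.042). Both groups of both genes stood apart. Mx2 fell short of the threshold in 9 of 15 alternatives, among them without G4, mE6, F5, mG2 or mG6, with edgeR adjusted p up to 0.13.

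Ifi35, a leucine zipper protein, was at 0.375, 1.69, 1.79, 2.43 and 3.62 CPM in astrocytes and 0.121, 0.0945 and 0.431 CPM in NPCs. Clone 129 was the lowest astrocyte and lay below the NPC clone mG6, so the groups overlapped, and the log2 fold change was 3.20 ± 0.86 (adjusted p = 0.0278). Without mC3, F5 or mG2 it was not called (edgeR adjusted p up to 0.103). Ifi44 was at 0.836, 0.807, 0.441, 0.583 and 1.09 and 0.167, 0.0405 and 0.0862 CPM without overlap (2.90 ± 0.57, adjusted p = 0.00874). Isg15, the ubiquitin-like modifier, was at 2.79, 0.503, 0.48, 0.431 and 0.997 CPM in astrocytes and 0.325, 0.0945 and 0.0369 CPM in NPCs. All astrocyte clones were above all NPC clones for Isg15, clone 129 by far the highest, but the difference was not called by edgeR (2.74 ± 0.96, adjusted p = 0.0673). DESeq2 and limma called it, with adjusted p from 0.00826 to 0.222 over all alternatives. In clone 129 the microglia and macrophage markers also had their highest sum, 6.12 CPM, of which Csf1r gave 1.76 CPM, while Ptprc was at 0 there. Their part in the Isg15 level was not tested.

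None of the 3 Ifit genes, whose products bind foreign RNA, was called. Ifit3 was at 0.418, 0.727, 1.78, 3.4 and 3.61 CPM in astrocytes and 0.418, 0.365 and 0.997 CPM in NPCs (edgeR adjusted p = 0.144). Ifit1 was at 0.633, 0.331, 0.544, 0.304 and 0.532 and 0.548, 0.081 and 0.246 CPM (edgeR adjusted p = 0.441). Ifit2 was at 3.4, 6.22, 15.9, 5.27 and 7.12 and 8.98, 5.28 and 5.57 CPM (edgeR adjusted p = 0.804). For all 3 the astrocyte and NPC ranges overlapped.

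Of the 3 guanylate-binding protein genes, which encode GTPases that attack the vacuoles of intracellular pathogens, 2 were lower in astrocytes. Gbp7 was at 0.0536, 0.185, 0.0389, 0.076 and 0.0997 CPM in astrocytes, 3 to 14 reads per library, and at 3.05, 2.25 and 14.3 CPM in NPCs, 167 to 1162 reads. The lowest NPC clone, mG2, was above every astrocyte clone, and the log2 fold change was -6.15 ± 0.79 (adjusted p = 0.0016). Gbp3 was at 1.05, 0.185, 1.02, 0.76 and 0.366 CPM in astrocytes and 19, 5.52 and 5.06 CPM in NPCs (-3.86 ± 0.68, adjusted p = 0.00599). Gbp2 was at 1.61, 1.52, 2.49, 1.8 and 0.421 and 2.4, 0.216 and 0.456 CPM with overlapping groups and was not called (edgeR adjusted p = 0.626). Rsad2, which encodes the antiviral enzyme viperin, was at 0.461, 0.754, 0.415, 0.988 and 0.986 CPM in astrocytes and 5.87, 3.0 and 8.04 CPM in NPCs (-2.96 ± 0.46, adjusted p = 0.00342).

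**Figure D2:**
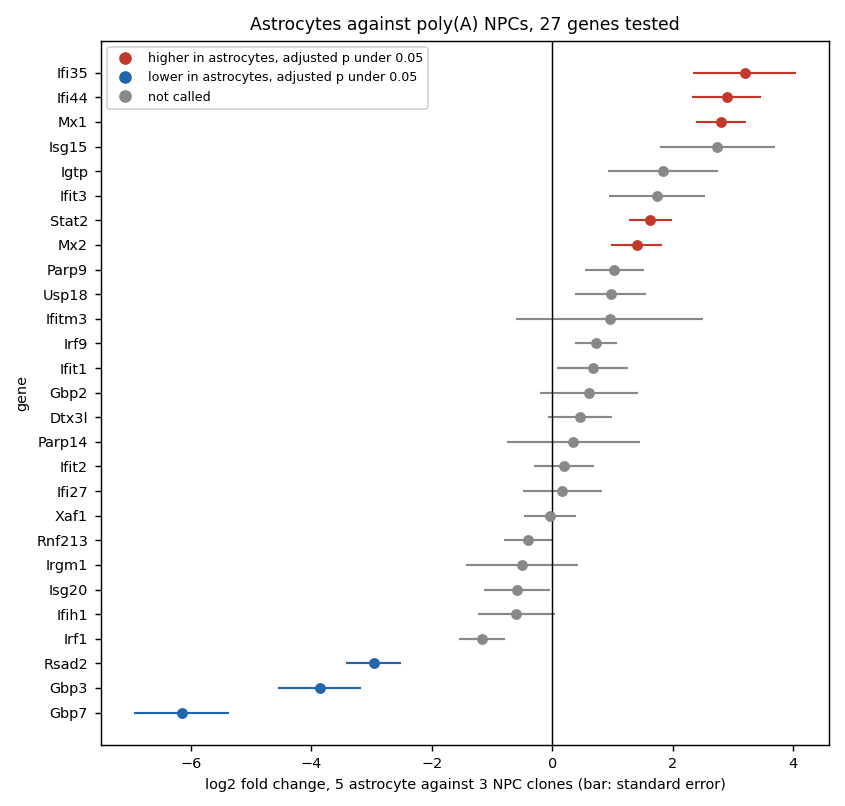
Log2 fold change of astrocytes against poly(A) NPCs (horizontal axis) with its standard error for the 27 genes tested, 5 against 3 clones. The 5 red points from Mx2 to Ifi35 are the genes called higher in astrocytes, the 3 blue points are Rsad2, Gbp3 and Gbp7, and Gbp7 lies farthest from 0 at -6.15.

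The remaining genes were not called, and several of them had wide ranges between clones of one cell type. Ifitm3, which blocks virus entry, was at 19.1, 68.5, 0.428, 1.56 and 1.92 CPM in the 5 astrocyte clones and 21.3, 1.54 and 5.48 CPM in the NPCs, so that C2 and G4, both female astrocytes, had the highest and the lowest level of all 8 libraries. C2 was also the clone with the highest sum of fibroblast markers, whose part in this was not tested. Irgm1, an immunity-related GTPase, was at 3.34, 2.76, 2.39, 0.291 and 4.9 and 8.85, 0.608 and 2.19 CPM, lowest in mC3 and highest in F5. Parp14 was at 0.0107, 4.03, 1.31, 2.43 and 1.58 CPM in astrocytes, which is 1 read in clone 129 against 101 to 305 reads in the other astrocyte clones. Usp18, the brake on the type I receptor, was at 0.568, 0.225, 0.739, 0.355 and 0.432 and 0.0929, 0.189 and 0.431 CPM (edgeR adjusted p = 0.263). The standard deviation of the log2 level over the 5 astrocyte clones had a median of 0.80 over the 27 genes and of 0.48 over 18323 genes with at least 10 reads in 3 libraries, and over the 3 NPC clones 0.74 and 0.36. This compares genes of unequal depth. Bst2 had 1 to 3 reads in each astrocyte library and 11, 8 and 28 reads in F5, mG2 and mG6, Trim25 had at most 2 reads in astrocytes and 3, 1 and 25 reads in the NPCs, and Oasl2 had 3 to 25 reads in the poly(A) libraries, so these were not tested.

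The upstream pathway was followed in lists of other genes. Of 10 interferon ligand genes 8 were found in the files, 7 of them had 0 reads in all 16 libraries, and Ifna2 had at most 2 reads in a library. A count of 0 allows up to 3 reads, which is 0.0279 to 0.0405 CPM in the poly(A) libraries. Of 6 receptor genes 5 were tested and 1 was called. Ifngr1 was at 63, 131, 89, 60.6 and 79.4 CPM in astrocytes and 29.4, 26 and 39.3 CPM in NPCs (1.42 ± 0.30, adjusted p = 0.0112). Ifnar1 was at 93.4, 129, 104, 81.5 and 71 and 142, 123 and 153 CPM and Ifnar2 at 15.2, 29.3, 18.7, 14.7 and 15 and 28.6, 17.7 and 25.4 CPM, and neither was called (edgeR adjusted p = 0.0902 and 0.385).

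Of 14 kinases, factors and inhibitors 3 were called higher (Jak1, Irf5 and Socs1) and 1 lower (Irf8). Jak1 was at 212, 391, 245, 310.4 and 159.9 CPM in astrocytes and 105, 108 and 146 CPM in NPCs (1.14 ± 0.31, adjusted p = 0.0278), and Tyk2 was not called (edgeR adjusted p = 0.968). Of 13 nucleic acid sensors and adaptors tested, 2 were called, both lower in astrocytes: Mb21d1, the DNA sensor cGAS (-4.73 ± 1.03, adjusted p = 0.013), and Tmem173, its adaptor STING (-2.35 ± 0.45, adjusted p = 0.00838). Of 24 other interferon-stimulated genes tested, Parp10 and Znfx1 were called higher and Gbp4, Ly6e and Tor3a lower. The median log2 fold change was 0.45 over these 24 genes. The called share was 20% of the receptor genes, 28.6% of the kinases, factors and inhibitors, 15.4% of the sensors and adaptors and 20.8% of the other genes. Over all 18192 genes tested 12.8% were called higher and 12.5% lower. The lists were thus near or under the share of all genes.

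The second comparison asked whether the NPC clones differ among themselves, using the Ch clones with 2 libraries each. Of 21 genes that passed the filter 8 were called (Gbp7, Ifi27, Gbp3, Rsad2, Trim25, Ifitm3, Irgm1 and Parp9), where 16.9% of all 17095 genes tested were called. Gbp7 was at 18.2 and 17.2 CPM in the 2 libraries of Ch3, 3.35 and 2.43 CPM in Ch5, 9.31 and 7.74 CPM in Ch7 and 7.52 and 5.03 CPM in Ch8 (edgeR adjusted p = 2.59e-05). Gbp3 followed a different order, with 10.7 and 10.2 CPM in Ch3, 14.1 and 13.6 CPM in Ch5, 8.47 and 7.11 CPM in Ch7 and 4.97 and 4.41 CPM in Ch8 (edgeR adjusted p = 8.09e-05). Thus Ch5 was the highest clone for Gbp3 and the lowest for Gbp7.

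Ifi27, a mitochondrial membrane protein gene, was matched through its older symbol Ifi27l1. Its level was 7.05 and 7.88 CPM in Ch3, 14.6 and 18.1 CPM in Ch5, 4.2 and 5.48 CPM in Ch7 and 14.7 and 18.5 CPM in Ch8 (edgeR adjusted p = 4.06e-05). Rsad2 was at 0.957 and 1.37 CPM in Ch3, 19 and 39 reads, and at 0 to 6 reads in the 6 other libraries (edgeR adjusted p = 0.00155). Trim25, a ubiquitin ligase of the RNA sensing pathway, was highest in Ch8 at 1.53 and 1.19 CPM, 39 and 31 reads, and lowest in Ch5 at 0.0676 and 0.193 CPM (edgeR adjusted p = 0.00362). Irgm1 was highest in Ch5 at 21 and 39 reads, against 2 to 11 reads elsewhere (edgeR adjusted p = 0.0127). Ifitm3 was highest in Ch3 at 13 and 21 reads, against 1 to 5 (edgeR adjusted p = 0.00635). Parp9 was lowest in Ch3 at 0.554 and 0.77 CPM and reached 1.8 and 1.92 CPM in Ch8 (edgeR adjusted p = 0.0317).

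Stat2, at 10.4, 10.1, 11.5, 10.8, 12.7, 14.7, 13.1 and 13.1 CPM in the 8 libraries, and Irf9, at 5.19, 5.43, 5.88, 5.28, 4.94, 5.81, 5.13 and 5.95 CPM, were not called among the Ch clones (edgeR adjusted p = 0.0883 and 0.983). Without clone Ch3, edgeR called 4 of the 8 genes, Irgm1 and Parp9 were not (adjusted p = 0.063 and 0.461), and Rsad2 and Ifitm3 did not pass the filter there. With 1 library left out, Parp9 was lost without either library of Ch3 or Ch7 or the second of Ch8, Irgm1 without the second of Ch3 or Ch5 (edgeR adjusted p up to 0.161) and Ifitm3 without the second of Ch3 (0.079). Parp9 was also not called by DESeq2 on all 8 libraries, and was called in 6 of 13 alternatives. In the sensor list 5 of 13 genes were called, where 16.9% of all genes tested were. Tlr3, an RNA sensor, and Mb21d1 were among the 5. Mb21d1 was at 6.8 and 5.29 CPM in Ch3 and 0.740 to 1.5 CPM in the other libraries. Tlr3 went the other way, lowest in Ch3 at a mean of 8.07 CPM and highest in Ch8 at 26.8 CPM. The list thus had no common order of Ch3 against the rest.

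Allelic ratios could be given for 25 genes in at least 1 clone, in 190 of 372 gene and clone pairs. By the study's classes 26 of these ratios were monoallelic for 129 (under 15%), 38 monoallelic for Cast (over 85%), 84 biallelic (35 to 65%) and 42 biased. So 33.7% of the ratios were monoallelic, where 6.52% of 147674 ratios over all autosomal genes were, at unequal depth. The ratios of a gene in several clones are not independent, and few genes made most of this share. Of the 64 monoallelic ratios Mx1 gave 10, Mx2 12, Ifit2 10, Irgm1 8 and Ifi27 5. Mx1, Mx2, Ifit2 and Irgm1 were called for strain bias below. Irf7, Isg20, Oasl2, Bst2, Usp18 and Xaf1 had under 20 allele-specific reads in every clone, and for Xaf1 this was at most 1 read although it had 27 to 97 reads in all.

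**Figure D3:**
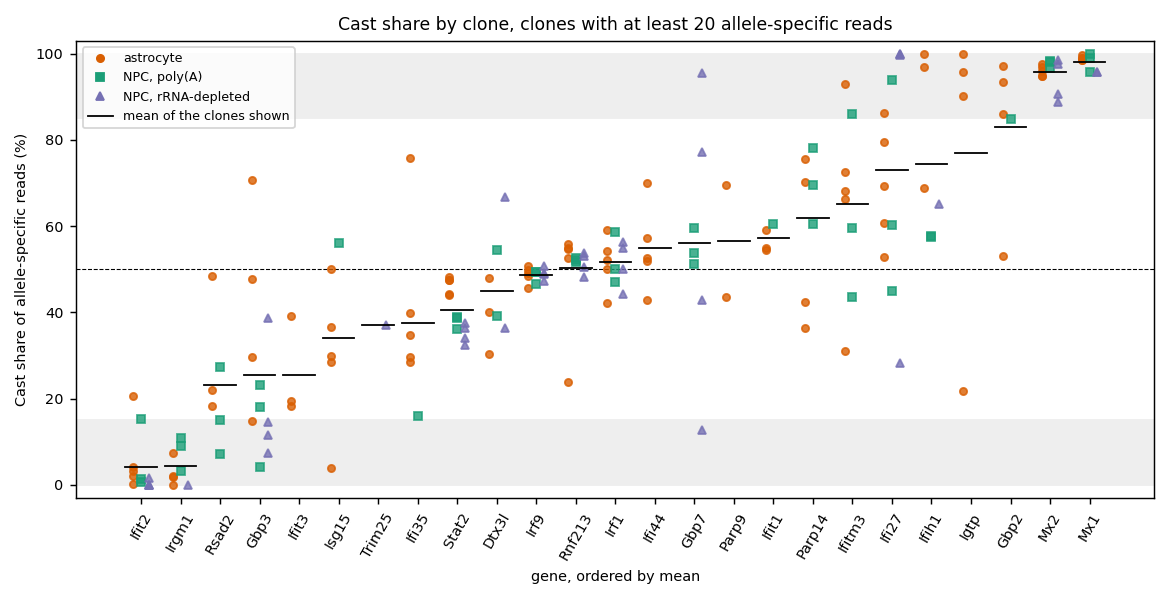
Percentage of Cast reads among allele-specific reads (vertical axis) by clone for the 25 genes with at least 20 such reads in a clone, ordered by the mean of the clones shown (bar). Grey bands mark the monoallelic classes. Ifit2 and Irgm1 lie low and Mx1 and Mx2 high in every clone shown, while Gbp7, Igtp and Ifi27 spread over most of the range.

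Strain bias was tested as a Cast to 129 ratio that departs from equal by more than the spread over the 12 clones, in 18 genes. Mx1, Mx2 and Ifih1 were called toward Cast, where 15.8% of all 12640 genes tested were, and Ifit2, Irgm1, Gbp3 and Stat2 toward 129, where 26.3% of all were. Over all genes 1994 were called toward Cast and 3323 toward 129. With each allele scaled to its own library total this became 4628 and 1445, and the median log2 ratio over all genes moved from -0.06 to 0.15. The 7 genes kept their direction and call under that scaling.

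Mx1 was Cast-expressed in each clone that could be measured. Its ratio was 99, 98.6, 98.6, 99.7 and 99% in astrocyte clones 129, C2, G4, mC3 and mE6, 98.9, 95.7 and 100% in F5, mG2 and mG6 and 95.7% and 95.8% in Ch3 and Ch7 (log2 Cast to 129 ratio 5.82 ± 0.54, adjusted p = 4.17e-06). Mx2 was at 97.6, 96.1, 94.8, 94.7 and 96.8% in the astrocyte clones, 98.2, 96.6 and 98.2% in the poly(A) NPC clones and 90.5, 88.7, 97.6 and 98.5% in Ch3, Ch5, Ch7 and Ch8 (4.66 ± 0.29, adjusted p = 1.25e-07). The higher level of Mx1 in astrocytes was a higher level of its Cast allele, which gave 3.64 to 10.2 CPM in astrocytes and 0.608 to 1.03 in poly(A) NPCs, against at most 0.0997 CPM from 129. The 20 Mb window around them had median ratios of 46.1 to 49.0% in all clones.

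Ifit2 was read almost wholly from 129. Its ratio was 4.24, 20.6, 0.214, 3.28 and 2.09% in the astrocyte clones, 15.3, 1.42 and 0.549% in F5, mG2 and mG6 and 0, 0, 0 and 1.49% in Ch3, Ch5, Ch7 and Ch8, with C2 (95% Wilson interval 15.2 to 27.2%) and F5 alone above 15% (-5.54 ± 0.72, adjusted p = 6.34e-05). In Ch5 the 0 of 104 reads had an interval of 0 to 3.56%. Irgm1 was at 7.45, 1.79, 0 and 2.15% in astrocyte clones 129, C2, G4 and mE6, 10.8, 9.09 and 3.19% in F5, mG2 and mG6 and 0% in Ch5 (-4.33 ± 0.50, adjusted p = 2.58e-05). Ifit1 and Ifit3, in the same gene cluster as Ifit2, were measurable in few clones. Ifit1 was at 54.5 to 60.6% in 4 clones, and Ifit3 at 39.1% in G4, 19.4% in mC3 and 18.2% in mE6.

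Stat2 had the smallest of the 7 called biases. Its ratio was 44, 44.3, 47.6, 48.1 and 47.6% in the astrocyte clones, 36.2, 38.9 and 38.6% in the poly(A) NPC clones and 34, 32.4, 36.5 and 37.4% in Ch3, Ch5, Ch7 and Ch8, under 50% in 12 of 12 clones (-0.56 ± 0.09, adjusted p = 0.000465). The window around Stat2 was under 50% in each clone too, at 46.3 to 48.9%, so the side of 50% alone does not set Stat2 apart. Its log2 ratio was -0.43 with the window offset and -0.35 with own allele totals (edgeR adjusted p = 0.00221 and 0.00673). In the astrocyte clones alone the log2 ratio of Stat2 was -0.21 (edgeR adjusted p = 0.0392). Irf9, the partner of Stat2, was at 45.6 to 50.9% in the 12 clones and was not called (edgeR adjusted p = 0.18). Irf1 was at 42.3 to 59.1% (edgeR adjusted p = 0.795). In the upstream lists 2 of 5 receptor genes were called toward 129, where 26.3% of all genes were. These were Ifnar1 (-0.24 ± 0.05, adjusted p = 0.00167) and Ifngr2 (-0.45 ± 0.06, adjusted p = 5.42e-05). Own allele totals moved the median log2 ratio of all genes from -0.06 to 0.15, so the small Ifnar1 value may depend on the scaling. Of 12 other interferon-stimulated genes tested 6 were called toward Cast, where 15.8% of all genes were, and 1 toward 129. Herc6 was at 4.93 ± 0.85 and Gbp9 at 3.23 ± 0.47.

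Gbp3 and Ifih1 combined a strain bias with a wide spread. Gbp3 was at 23.1, 4.13 and 18.2% in F5, mG2 and mG6 and 7.42, 38.8, 14.6 and 11.6% in the Ch clones, but in astrocytes, where it is low, it was at 29.5% in 129, 47.7% in G4, 70.6% in mC3 (interval 57 to 81.3%) and 14.8% in mE6 (5.92 to 32.5%). The bias was called over all clones (-1.83 ± 0.47, adjusted p = 0.0078) and not in the astrocyte clones or the poly(A) clones alone (adjusted p up to 0.471). Ifih1, the RNA sensor MDA5, was at 100% in clone 129 (94.2 to 100%), 68.9% in G4 and 96.9% in mE6, and at 57.5% in F5 (48.8 to 65.7%), 57.6% in mG6 and 65.2% in Ch8 (2.48 ± 0.67, adjusted p = 0.01). In the astrocyte clones alone Ifih1 was at adjusted p = 0.0516.

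The allelic ratio was next compared between astrocytes and poly(A) NPCs. Of the 15 genes tested with edgeR 0 were called, where 0.47% of all 12121 genes were. Limma on the logit of the ratio called 0 as well, and at an unadjusted p under 0.05 there was 1 gene, Stat2. The Stat2 ratio was 46.3 ± 1.99% (SD, n = 5) in astrocytes and 37.9 ± 1.53% (n = 3) in NPCs, without overlap. The difference was 0.50 ± 0.08 in the log2 ratio (edgeR adjusted p = 0.0625). For Gbp3 the difference was 2.09 ± 1.00 and for Rsad2 1.85 ± 0.91, neither called (edgeR adjusted p = 0.446 and 0.463). Gbp7 could not be compared, since no astrocyte clone had more than 7 allele-specific reads.

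Clone-variable ratios were tested among the Ch clones against the difference between the 2 libraries of a clone. Of 9 genes tested 3 were called, Ifi27, Gbp7 and Gbp3, where 9.19% of all 10649 genes were. Gbp7 was the sole gene of the 31 that was monoallelic from opposite alleles in different clones. Its ratio was 96.9 and 94.6% in the 2 libraries of Ch3, 37.7 and 51.6% in Ch5, 11.5 and 14.1% in Ch7 and 82.1 and 69.6% in Ch8 (edgeR adjusted p = 8.22e-52). With the libraries summed, Ch3 was at 95.6% (92.6 to 97.4%) and Ch7 at 12.6% (8.7 to 18%). The clones F5, mG2 and mG6 were biallelic at 53.7, 51.2 and 59.6%.

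The reads of each allele show where the Gbp7 level came from. The Cast allele gave 5.82 CPM in Ch3, 0.648 in Ch5, 0.44 in Ch7 and 2.09 in Ch8. The 129 allele gave 0.269, 0.864, 3.05 and 0.62 CPM in the same clones. The highest Cast level and the lowest 129 level were in Ch3, the highest 129 level and the lowest Cast level in Ch7, and Ch5 was low for both. In Gbp3 the 129 allele gave 6.96, 6.25, 4.86 and 3.1 CPM and led in each clone. The Cast allele of Gbp3 was at 3.96 CPM in Ch5 and at most 0.828 in the other Ch clones. Ratios of Gbp3 were 12.3 and 4.13% in Ch3, 33.3 and 45.5% in Ch5, 14.8 and 14.3% in Ch7 and 9.28 and 14.3% in Ch8 (edgeR adjusted p = 7.68e-20). In Ch3 Gbp7 was thus read mostly from Cast and Gbp3 mostly from 129, while the 20 Mb window around both had a median of 47.6 to 49.1% in the Ch clones.

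**Figure D4:**
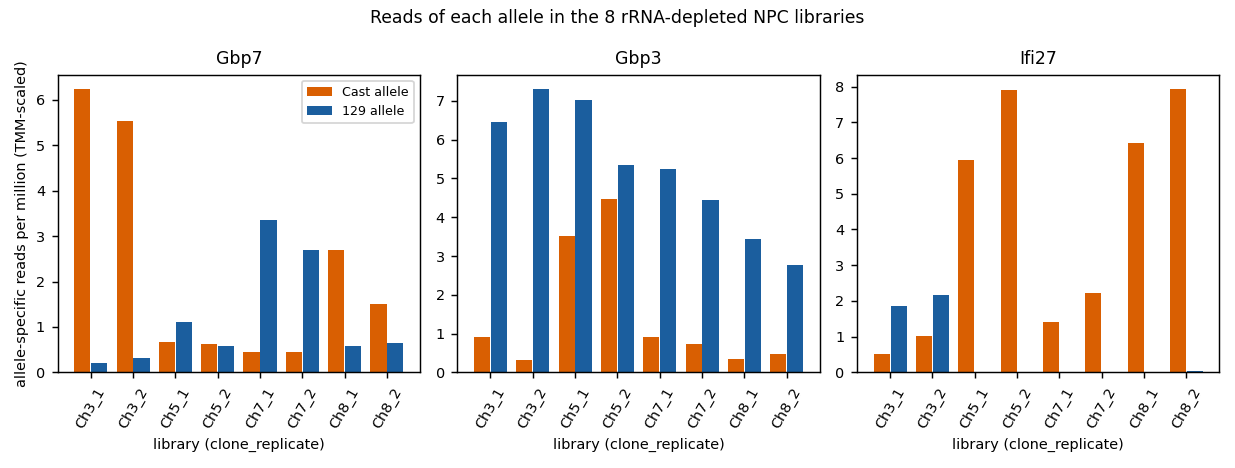
Allele level in CPM (TMM-scaled library size, vertical axes starting at 0) from the Cast and 129 alleles of Gbp7, Gbp3 and Ifi27 in the 8 ribosomal RNA-depleted NPC libraries, 2 for each clone. The taller Gbp7 bar is Cast in Ch3 and Ch8 and 129 in Ch7, the 129 bar is taller for Gbp3 in all libraries, and Ifi27 has no visible 129 bar outside Ch3.

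Ifi27 was at 21.3 and 31.9% in the 2 libraries of Ch3 and at 99.5 to 100% in the 6 libraries of Ch5, Ch7 and Ch8 (edgeR adjusted p = 2.82e-75). In those 3 clones the median ratio of the 20 Mb window around it on chromosome 12 was 100% too, and it was 49.7% in Ch3. Among Ch5, Ch7 and Ch8 alone it was not called (edgeR adjusted p = 0.903). In the other clones its ratio was 52.7, 69.3, 86.3, 60.7 and 79.5% in 129, C2, G4, mC3 and mE6 and 93.9, 45 and 60.4% in F5, mG2 and mG6. The window was at 71.8% in G4 and 73.3% in F5, the clones with the highest ratios, and at 48.5 to 54.6% in the 6 remaining ones. In mE6 Ifi27 was at 79.5% (78.1 to 80.9%) with a window of 49.2%. In RefSeq Ifi27 overlaps Ifi27l2a, and how their reads were split was not tested. Rsad2 lies at the other end of chromosome 12, whose window was also at 100% in Ch5, Ch7 and Ch8, where it had at most 3 allele-specific reads in a clone. In the upstream lists Tlr3, Mavs and Tmem173 were called of 9 sensors and adaptors tested, where 9.19% of all genes were. Cmpk2 was called of 8 other interferon-stimulated genes tested. Of 5 receptor genes and of 10 kinases, factors and inhibitors 0 were called. Tlr3 had opposite monoallelic ratios in 2 Ch clones, 99% in Ch3 and 5.03% in Ch5, with 57% in Ch7 and 54.2% in Ch8 (edgeR adjusted p = 1.53e-46). The 6 other genes tested among the Ch clones, Stat2, Irf1, Irf9, Ifit2, Mx2 and Rnf213, were not called (edgeR adjusted p from 0.262 to 1).

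Several further genes departed from the other clones in 1 clone. Rnf213, a large ubiquitin ligase gene with 684 to 2767 allele-specific reads per clone, was at 23.8% in astrocyte clone 129 (95% Wilson interval 21.4 to 26.3%) and at 48.2 to 55.8% in the other 11 clones. Its window was at 51.7% in clone 129. The Cast allele was at 2.94 CPM there and at 7.09 to 20.02 in the other astrocyte clones, while the 129 allele at 9.42 lay within their range. Isg15 was at 4.0% in G4 (0.71 to 19.5%) and at 28.4 to 56% in 5 other clones, and the window around it was at 7.27% in G4 and 44.1 to 49.7% in all other clones. Ifi35 was at 75.9% in G4 (65.9 to 83.6%) and at 16 to 39.8% in 5 other clones, with a window of 49.96% in G4.

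Among their measured clones, the GTPase genes Igtp and Gbp2 had their lowest ratio in mC3, and Gbp3 above had its highest there. For any gene some clone is lowest and some clone highest, so this does not set mC3 apart. The GTPase genes Mx1 and Mx2 lay within the range of the other clones in mC3. Igtp, whose product acts with Irgm1 on pathogen vacuoles, was at 21.7% in mC3 (9.66 to 41.9%) and at 95.8%, 100% and 90.2% in C2, G4 and mE6. Gbp2 was at 53.1% in mC3 (36.4 to 69.1%) and 84.9 to 97.2% in 4 other clones. The windows of Igtp and Gbp2 were at 48.0 to 48.8% in mC3. These ratios rest on 23 and 32 allele-specific reads in mC3.

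Ifitm3 spread over the range, with 93, 72.5, 68.2, 31 and 66.3% in astrocyte clones 129, C2, G4, mC3 and mE6 and 59.5, 43.6 and 86% in F5, mG2 and mG6. Its strain bias was not called (edgeR adjusted p = 0.108). Parp14 was at 36.4 to 78.1% in 7 clones, Dtx3l at 30.3 to 66.7% in 7, and Ifi44 at 42.9 to 70.0% in 5. The standard deviation of the ratio over clones had a median of 13.3 percentage points over the 18 genes with at least 6 measurable clones. Over 12252 autosomal genes the median was 5.49, with as many genes above it as below, and 13 of the 18 were above it. This compares genes of unequal depth, and Dtx3l had 21 to 52 allele-specific reads in its measurable clones. Irf9 with 1.57 points and Mx1 with 1.68 points were the steadiest of the 18, Gbp7 with 26.2 and Ifi27 with 24 the most variable. The spread of Ifi27 takes in Ch5, Ch7 and Ch8, where the median of its window was 100%.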

How the data were processed

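RNA-seq libraries of 5 astrocyte clones, 3 poly(A) NPC clones and 4 ribosomal RNA-depleted NPC clones (2 libraries each) were analysed. The authors aligned reads with TopHat2 2.1.0 and Bowtie2 to GRCm38 with strain variants masked, assigned them to alleles and counted them per gene by strand with featureCounts 1.5.1. The deposited values are raw counts of Cast, 129 and all reads, and the ratio column, which the authors deposited as the fraction of Cast among allele-specific reads, was not used. Merging of biological replicates is described by the authors and not broken down by library here. Nothing states that the 2 libraries of a Ch clone came from separate cultures. The p-values among the Ch clones rest on the difference between the 2 libraries of a clone, which may be technical. Those of the other tests rest on the spread between clones, each with 1 value.

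Levels were tested with edgeR 4.0.16 (R 4.3.3; TMM, filterByExpr, quasi-likelihood F test, Benjamini-Hochberg over all genes, threshold 0.05); the standard error is the size of the log2 fold change over the square root of F. Allelic ratios were tested in edgeR on paired Cast and 129 counts, with a common offset per library, keeping genes whose alleles had 20 reads together in no fewer than 6 clones (strain bias), 3 astrocyte and 2 NPC clones (cell type) or 6 Ch libraries (clones). The 31 genes and the other lists were chosen with earlier results of these data known. Values by clone were given for called genes and, whatever their values, for Stat2, Irf7, Irf9, Isg15, Ifit1, Ifit3, Ifi27, Bst2, Ifitm3 and Usp18. Others described by clone or singled out (Irf1, Ifit2, Gbp2, Parp14, Igtp, Rnf213, Ifi35, Trim25, Oasl2) were chosen after their values were seen where no comparison called them. Window medians cover the genes of the same 20 Mb stretch of the chromosome, at least 10 of them. Intervals are 95% Wilson intervals and, like the floor of 3 reads for a count of 0, cover counting error only. DESeq2 1.42.0, limma 3.58.1, other scalings, filters, read minimums of 10 and 50, subsets of clones and leaving out each library were tried. Scripts were tested on simulated counts. Reads shared by similar members of the Gbp, Ifit and Mx families, or by overlapping genes (Ifi27 with Ifi27l2a, Ifit1 with Ifit1bl1, Parp9 with Dtx3l, Stat2 with Apof), may be split in ways that were not tested. An alignment preference for one allele was not tested either.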

Additional observations from a re-analysis of the deposited data

Results flagged for a closer look

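Among the 5 astrocyte clones, 7 of 39 Dixon tests on single genes picked out 1 clone that stood apart from the other 4. Chance picks about 1 in 20 groups of independent, normally spread values, which low counts and percentages need not be. The share over all genes was not computed, so the count does not show an excess in these genes. Of these 4 were levels. The log2 CPM of Irf9 was 4.50 in clone 129 and 3.23 to 3.56 in the other clones. The log2 CPM of Parp14 was -4.86 in clone 129, where it rests on 1 read, and 0.41 to 2.02 in the others. The log2 CPM of Gbp2 was -1.17 in mE6 and 0.63 to 1.33 in the others, and that of Irgm1 was -1.67 in mC3 and 1.27 to 2.30 in the others. The other 3 were allelic ratios. The Cast ratio of Rnf213 was 23.8% in clone 129 and 52.6 to 55.8% in the others, that of Ifit2 was 20.6% in C2 and 0.214 to 4.24% in the others, and that of Ifi35 was 75.9% in G4 and 28.5 to 39.8% in the others. Clone 129 gave 3 of the 7. Each rests on 1 library per clone, and whether a repeat library would give the same value was not tested.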

How the results depend on the processing

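Each clone of the poly(A) groups is 1 library, and genes with few reads (Irf7, Oasl2, Bst2 and Trim25) stayed below testing there. Of the values of single genes under the alternatives, 378 of 405 kept direction and side of the threshold for astrocytes against NPCs, 255 of 271 among the Ch clones, 330 of 341 for strain bias, 194 of 194 for the allelic ratio by cell type and 121 of 122 for clone-variable ratios. The cause was not tested for any of the changes that follow. For astrocytes against NPCs, Mx1, Gbp7 and Rsad2 were called in 15 of 15 alternatives, Stat2 was lost without any one of the NPC libraries (highest adjusted p 0.0615), Ifi35 in 4 (0.103), and Ifi44 and Gbp3 with the B129 astrocytes alone (0.0504 and 0.0531). With these 2 astrocyte clones 5 of the 31 genes were called in place of 8. Leaving out 1 library gave 2243 to 4784 calls over all genes in place of 4603 (2637 without F5, 2243 without mG2, 3019 without mG6) and 5 to 9 of the 31. Among the Ch clones there were 2889 calls, 4369 with no low-count filter and 1160 without clone Ch3 (4 of the 31), and 1653 to 3524 without 1 library (6 to 11 of the 31), of which 1835 and 1653 without the first and second library of Ch3 and 1806 and 1778 without those of Ch7. Irgm1 was also lost without the second library of Ch3 or of Ch5 and Ifitm3 without the second of Ch3. With each allele scaled to its own total the Irf9 ratio turned to Cast (log2 ratio 0.14, adjusted p = 0.0472, where the main value was -0.07 and not called), and Irf1 and Parp14 were called too. For the ratio by cell type there were 57 calls over all genes, 5 with own allele totals, 171 with the window offset and 4 to 72 without 1 library (31 without G4, 29 without mC3, 19 without mE6, 4 without F5, 13 without mG2 and 21 without mG6), and 0 of the 31 in all of these. Clone-variable calls were 979, 334 without clone Ch3 and 805 to 1073 without 1 library, with 3 of the 31 except without clone Ch3, where there were 2. The library numbers of the Ch clones did not pair them (correlations of same-numbered deviations -0.18 to 0.28), and with the number as a replicate block 3781 genes differed in level (8 of the 31) and 994 in ratio (3 of the 31). Autosomal genes alone, added after seeing the data, gave 5350, 85 and 989 calls for strain bias, ratio by cell type and ratio among clones.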

Other observations

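The 31 genes did not share one high clone. Of the 27 tested, mE6 was the highest astrocyte clone for 10, 129 and G4 for 6 each, C2 for 4 and mC3 for 1. Over all genes with 10 reads in 3 libraries these shares were 24.2% for mE6, 23.6% for 129, 20.6% for G4, 19.4% for C2 and 12.3% for mC3. Among the NPCs, F5 was highest for 13, mG6 for 12 and mG2 for 2. Over all of these genes F5 was highest for 40.2%, mG2 for 27.8% and mG6 for 32.1%.

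Of the 13 genes with the response element in the promoter window, 12 were tested between astrocytes and NPCs and 4 were called, Stat2 higher and Gbp3, Gbp7 and Rsad2 lower, where 12.8% of all genes tested were called higher and 12.5% lower. Both motifs were in the windows of 4 of the 31 genes. No window was matched for Ifi27, Mx1, Mx2, Usp18, Parp9 and Parp14.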
